A study of Mus musculus with 6 samples.

Results

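AP-1 is a family of basic leucine zipper (bZIP) transcription factors that bind DNA only as dimers. The 10 genes described here encode the Fos proteins (Fos, Fosb, Fosl1 and Fosl2), the Jun proteins (Jun, Junb and Jund) and the related factors Jdp2, Batf and Atf3. They were taken as named genes, not by their values, and each was represented by its brightest feature, the one of highest mean over the 6 arrays. All 10 were found, each with 1 feature, among the 19930 genes measured. They were compared between H10 cells, which fused into multinucleated osteoclasts, and C8 cells, which did not fuse. Both lines came from RAW264.7, a mouse macrophage line, had been stably transfected with Lifeact-mEGFP, a fluorescent label for actin, and were picked by limiting dilution from puromycin-resistant cells. Both were cultured for 2 days with sRANKL (soluble RANKL, the cytokine that starts osteoclastogenesis, OCG) at 60 ng/mL before total RNA was extracted, and 3 arrays were measured for each line. No array without sRANKL was analysed here, so the response to sRANKL itself cannot be read from these values. Each phenotype rests on 1 line, and a difference between the lines cannot be told apart from other differences between the clones.

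Fos proteins pair with Jun proteins, whereas Jun proteins can also pair with each other, and the dimers bind AP-1 sites or cyclic AMP response elements (CRE) in target genes. In osteoclast precursors, RANKL acts through MAP kinases to raise c-Fos, and c-Fos works with NFATc1 to switch on the osteoclast genes. Mice without Fos form no osteoclasts and become osteopetrotic. Fra-1, the product of Fosl1, can take the place of c-Fos in OCG, and Jdp2 is also needed for normal osteoclast formation.

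Both lines had high values for some macrophage markers, but not for all. On the 6 arrays the log2 value lay at 13.2 to 13.4 for Csf1r, the M-CSF receptor, and at 13.5 to 13.7 for Cd68. Of 10 macrophage and precursor markers, 1 was higher in H10 cells, Adgre1, a macrophage surface receptor, by a log2 fold change of 2.02 (standard error, SE, 0.12, adjusted p = 0.00114, limma). At an unadjusted p under 0.05 in limma, 5 of the 10 had higher values in H10 cells and 0 had lower ones. These 5 were Adgre1, Itgam, Fcgr1, Ptprc and Tnfrsf11a. Over all features, 5.63% had higher and 6.24% lower values at that threshold. In C8 cells Adgre1 read 7.71, 7.58 and 7.39, and Fcgr1, another of the markers, read 7, 7.38 and 7.21. These values lay near or under the table median of 7.7, and the Fcgr1 values in H10 were 7.51, 7.98 and 7.78. None of the 17 measured markers of B cells, T cells, neutrophils, fibroblasts or osteoblasts passed the test in limma, and 2 had an unadjusted p under 0.05, both with lower values in H10 cells. The median log2 value per array was 7.65 to 7.74. C8 replicate 1 held the highest C8 value for 59.6% of the 11189 genes brighter than the table median. Of the 6 arrays, this array also had the lowest lower quartile (6.34), the lowest median (7.65) and the highest upper quartile (9.94). Values of the AP-1 genes without it are given with the spread within each line.

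The starts of 9 member genes were found in the RefSeq promoter table of GRCm38.p6, which covers 250 bases before to 50 after each transcription start. Jdp2 had 3 starts, so 11 windows were read in all, and Fosl1 was not among them. Fos, Jdp2 and Batf are neighbours on chromosome 12, in that order among protein-coding genes, with Tmed10 before Fos and Flvcr2 after Batf. Junb and Jund lie apart on chromosome 8, Fosb on 7, Fosl1 on 19, Fosl2 on 5, Jun on 4 and Atf3 on 1. The 250 bases before the start are shown for the 3 members with the highest log2 fold changes in H10 cells, read 5′ to 3′ on the strand of the gene. They lie at chr12:85473640-85473889 on the plus strand for Fos, at chr1:191183334-191183583 on the minus strand for Atf3 and at chr4:95052223-95052472 on the minus strand for Jun. Capitals mark TGACGT, the first 6 letters of the CRE, on either strand in Fos and Atf3, and a match to TGACNTCA in Jun.
Fos: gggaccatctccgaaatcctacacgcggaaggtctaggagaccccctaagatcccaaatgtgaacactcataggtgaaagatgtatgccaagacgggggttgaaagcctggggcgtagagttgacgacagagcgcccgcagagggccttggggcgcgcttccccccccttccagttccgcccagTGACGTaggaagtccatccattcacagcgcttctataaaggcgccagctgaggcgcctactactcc
Atf3: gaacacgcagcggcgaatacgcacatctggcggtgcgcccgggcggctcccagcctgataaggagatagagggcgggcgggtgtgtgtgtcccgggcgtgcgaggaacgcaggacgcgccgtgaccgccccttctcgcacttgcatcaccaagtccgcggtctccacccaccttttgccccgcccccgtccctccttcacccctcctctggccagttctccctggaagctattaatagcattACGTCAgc
Jun: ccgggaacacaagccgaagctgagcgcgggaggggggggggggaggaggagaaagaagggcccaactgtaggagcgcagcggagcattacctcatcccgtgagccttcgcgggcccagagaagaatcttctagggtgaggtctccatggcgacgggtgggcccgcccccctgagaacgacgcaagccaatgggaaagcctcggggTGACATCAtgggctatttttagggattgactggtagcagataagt

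No member window held the AP-1 site TGANTCA, which 7.81% of the 32851 promoters in the table held, or the full CRE TGACGTCA, which 1.79% held. The CArG box, the letters read by serum response factor, was in none of the member windows and in 1.63% of all promoters. Sites more than 250 bases before a start were not read, so a CArG box further upstream would be missed. The core of the interferon-stimulated response element was in 1, that of Fosl2, and in 3.44% of all. These motifs were searched on both strands. TGACGT, which is part of the full CRE, was added after the first results were seen. It was in 4 of the 9 genes, Fos at position -66 from the start, Jdp2 at -114, Batf at -98 and Atf3 at -8, and in 7.51% of all promoters. That share counts windows and not genes. The members had 11 windows, and Jdp2 held the match at only 1 of its starts. TGACNTCA, also added, was in Jun alone, at -45, and in 8.83% of all. These matches are letters in a window, and whether a factor bound them was not measured.

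None of the 10 AP-1 genes passed the test between the lines. Values are RMA log2 values as the authors deposited them, a log2 fold change is H10 minus C8, and a gene passed at an adjusted p under 0.05 from limma, adjusted by Benjamini-Hochberg across the 35545 features. By this rule 1.36% of all features were called higher in H10 and 0.757% lower. At an unadjusted p under 0.05, 2 members had higher values in H10 cells, Fos and Atf3, and 1 had lower values, Fosl1, where 5.63% of all features had higher and 6.24% lower values at that threshold. The median log2 fold change of the members was 0.01, against -0.03 over all genes, and the median size of the log2 fold change was 0.145, against 0.0733 over all genes. These sets differ in brightness. All members but Fosb were brighter than the table median, against 11189 of the 19930 genes. The size among genes of like brightness was not tested. The arrays are bulk samples, so a change in the share of cells that express a gene and a change in RNA per cell cannot be told apart. Neither the labels nor the paper say whether the 3 arrays of a line were separate cultures, so the p-values rest on a spread between arrays that may be technical only. An exact permutation of 3 against 3 arrays cannot give a p below 0.1.

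Fos, the member that osteoclasts cannot form without, had the highest log2 fold change of the 10 but did not separate the lines. The arrays read 11.04, 10.31 and 10.64 in the H10 triplicate and 10.37, 9.49 and 9.46 in the C8 triplicate. C8 replicate 1 lay above H10 replicate 2 by 0.06, and the other C8 arrays lay below all H10 arrays. The mean was 10.66 ± 0.37 (SD, n = 3) in H10 and 9.77 ± 0.52 in C8 cells, giving a log2 fold change of 0.89 (SE 0.29, 95% interval 0.19 to 1.59, adjusted p = 0.269), or 1.85-fold. Without C8 replicate 1 the log2 fold change was 1.19 (adjusted p = 0.0789), and without the replicate 1 arrays of both lines it was 1.00 (adjusted p = 0.0615). Over 14 alternative settings it ran from 0.70 to 1.19, and the adjusted p from 0.0599 to 0.534.

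Fosl1 encodes Fra-1, a Fos protein without the strong activation domain of c-Fos and itself a target gene of c-Fos. It had log2 values of 11.11, 10.91 and 10.90 in H10 against 11.64, 11.34 and 11.35 in C8. All H10 arrays lay below all C8 arrays, with a gap of 0.23, opposite in sign to Fos. Over all features 10.1% had every H10 array below every C8 array and 6.96% every H10 array above, and Fosl1 was the 1 member of the first kind. Its mean was 10.97 ± 0.12 (SD, n = 3) in H10 and 11.44 ± 0.17 in C8 cells, and the log2 fold change was -0.47 (SE 0.11, 95% interval -0.73 to -0.21, adjusted p = 0.108). It passed in 2 of 14 settings, with adjusted p = 0.0432 among features above the table median and adjusted p = 0.0241 with 1 mean value per gene. It did not pass with adjustment over 1 feature per gene, which also tested fewer features.

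The other Fos genes had smaller log2 fold changes. Fosl2 encodes Fra-2, whose loss in mice leaves giant osteoclasts. Per array the log2 value was 12.32, 12.23 and 12.43 for H10 and 12.28, 12.10 and 12.13 for C8, giving a log2 fold change of 0.16 (95% interval -0.04 to 0.35, adjusted p = 0.563). H10 replicate 2 lay under C8 replicate 1, so the lines overlapped. Fosb, an immediate-early gene best known from neurons, had log2 values of 7.46, 7.63 and 7.54 in the H10 triplicate and 7.50, 7.64 and 7.66 in the C8 triplicate. Its log2 fold change was -0.06 (95% interval -0.24 to 0.13, adjusted p = 0.885). The Fosb values lie under the table median of 7.7, and background was not measured, so a low level of its mRNA cannot be told from background.

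**Figure D1:**
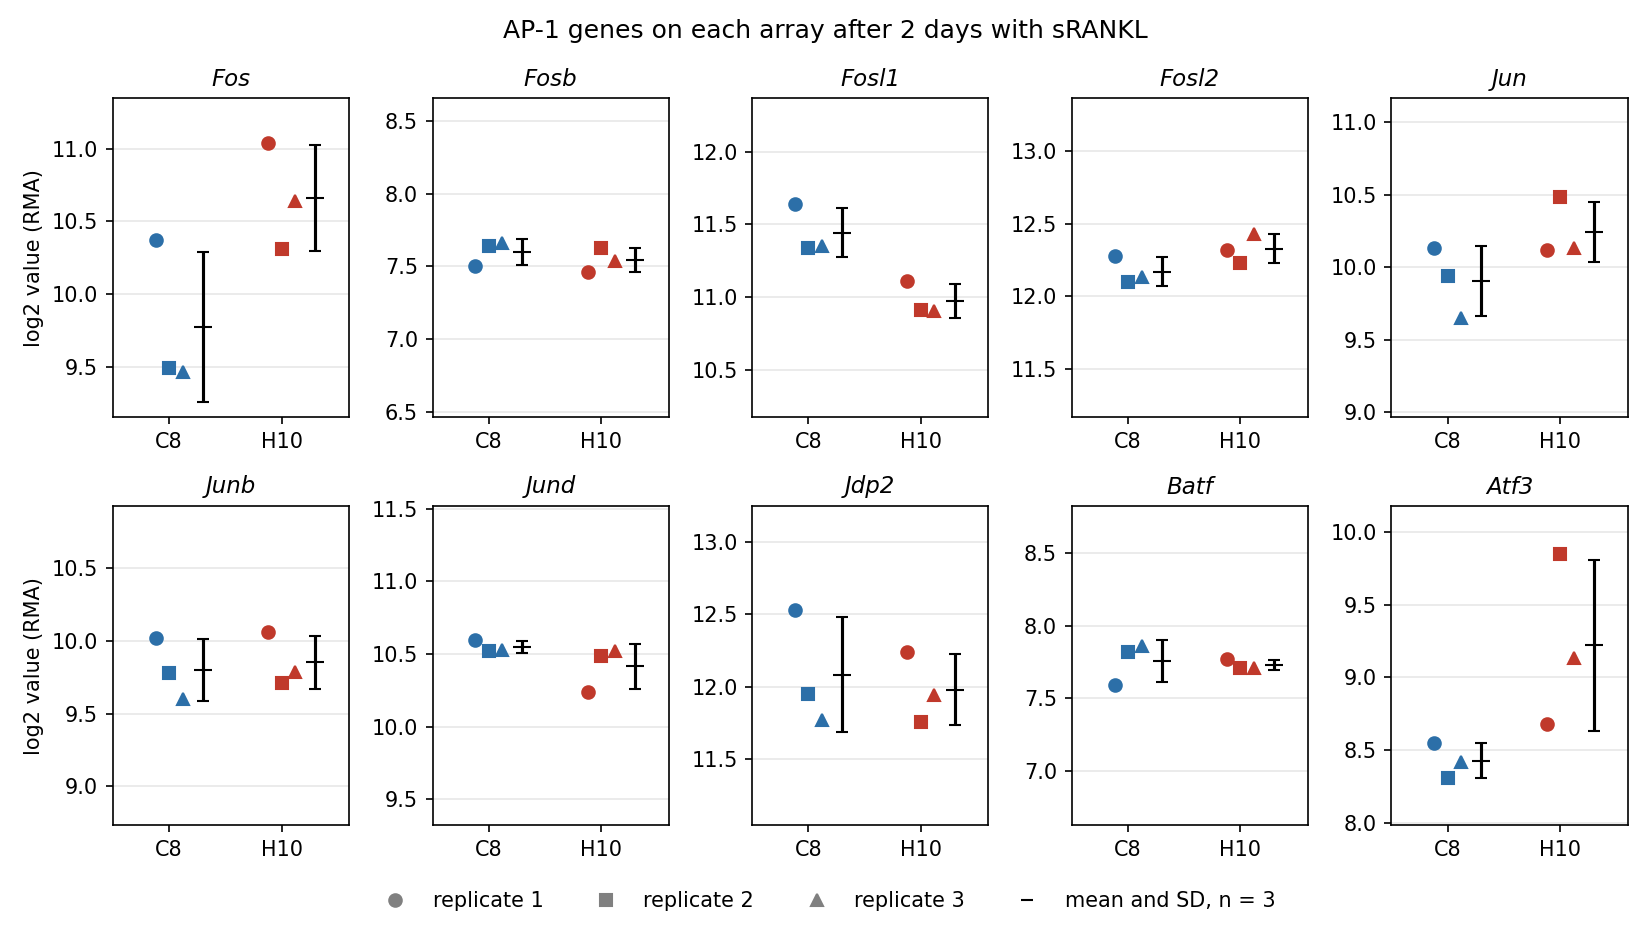
RMA log2 value of each AP-1 gene (y axis) on the 3 C8 and 3 H10 arrays (x axis), with marker shape for the replicate number and the bar for mean and SD, n = 3. Each panel spans the same range of log2 units at its own level. The H10 points lie above the C8 points for Atf3 and below them for Fosl1, and for Fos 1 C8 array reaches into the H10 range.

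Among the Jun proteins, the partners of the Fos family, no difference passed. Jun encodes c-Jun, the strongest activator of the Jun proteins. It had log2 values of 10.12, 10.48 and 10.13 in H10 against 10.13, 9.94 and 9.65 in C8. The highest C8 array exceeded the lowest H10 array by 0.01, and the log2 fold change was 0.34 (SE 0.15, 95% interval -0.03 to 0.70, adjusted p = 0.467). Junb, which can both oppose and replace c-Jun, had log2 values of 10.06, 9.71 and 9.79 for H10 and 10.02, 9.78 and 9.60 for C8. The arrays of the lines were interleaved, giving a log2 fold change of 0.05 (95% interval -0.27 to 0.38, adjusted p = 0.950). Jund, the Jun protein that most cells make without stimulation, had log2 values of 10.24, 10.49 and 10.52 in the H10 triplicate and 10.60, 10.52 and 10.53 in the C8 triplicate. The highest H10 array equalled the lowest C8 array, and the log2 fold change was -0.13 (95% interval -0.35 to 0.08, adjusted p = 0.693).

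Atf3, a stress-induced factor that represses many of its targets, had higher values in H10 cells on every array but varied widely there. Its log2 values were 8.68, 9.85 and 9.13 in H10 against 8.55, 8.31 and 8.42 in C8. All H10 arrays lay above all C8 arrays, by as little as 0.13, and Atf3 was the 1 member of this kind. Over all features 6.96% had every H10 array above every C8 array. The H10 arrays spanned 1.17 log2 units and the C8 arrays 0.24. The mean was 9.22 ± 0.59 (SD, n = 3) in H10 and 8.43 ± 0.12 in C8 cells, giving a log2 fold change of 0.79 (SE 0.28, 95% interval 0.13 to 1.46, adjusted p = 0.310). Without H10 replicate 2, the highest, the log2 fold change was 0.48 (adjusted p = 0.378), and without the replicate 1 arrays of both lines it was 1.13 (adjusted p = 0.193).

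Jdp2, a repressor of AP-1 that also takes part in osteoclast differentiation, had log2 values of 12.24, 11.76 and 11.94 for H10 and 12.53, 11.95 and 11.77 for C8. The replicate 1 array was the highest in each line and the lines overlapped, giving a log2 fold change of -0.10 (95% interval -0.62 to 0.41, adjusted p = 0.935). Batf, which pairs with Jun proteins and IRF factors in lymphocytes and dendritic cells, had log2 values of 7.77, 7.71 and 7.71 in the H10 triplicate and 7.59, 7.82 and 7.86 in the C8 triplicate. Its log2 fold change was -0.03 (95% interval -0.23 to 0.18, adjusted p = 0.961), at values near the table median, where the same limit holds as for Fosb. The neighbours Fos, Jdp2 and Batf had log2 fold changes of 0.89, -0.10 and -0.03. The intervals of Fosb, Batf, Fosl2, Jund and Junb all lay within 0.4 log2 units of 0, whereas those of Fos, Atf3, Jun, Fosl1 and Jdp2 reached past 0.5 in 1 direction.

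**Figure D2:**
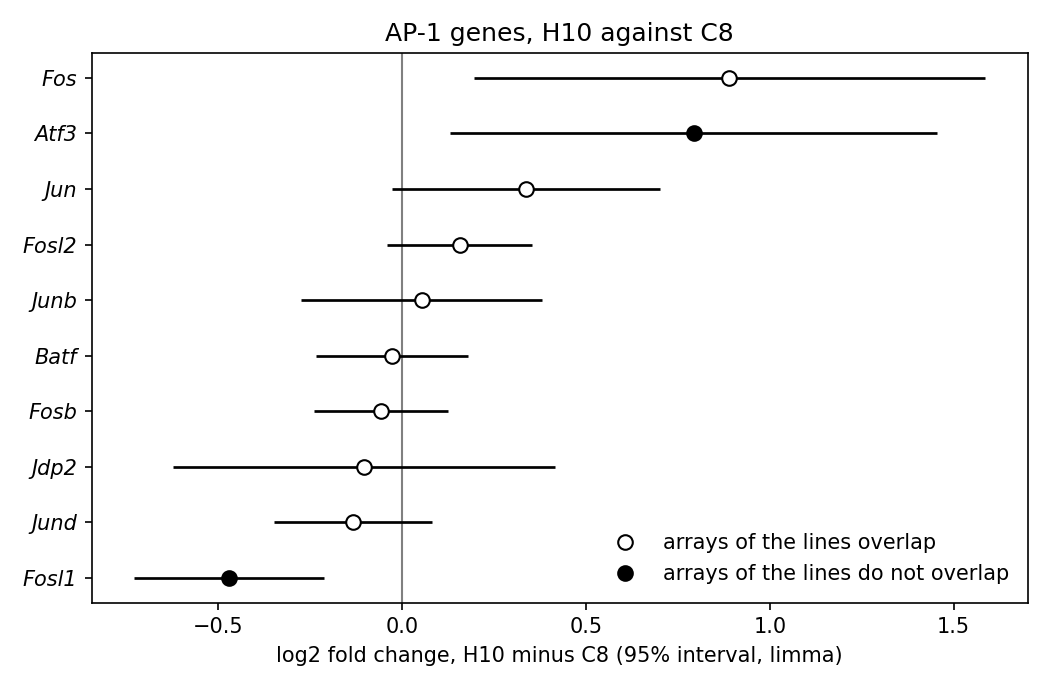
Log2 fold change, H10 minus C8 (x axis), of the 10 AP-1 genes (y axis), with the 95% interval from limma as a line and n = 3 arrays per line. Filled points mark genes whose arrays do not overlap between the lines, Atf3 at 0.79 and Fosl1 at -0.47. Over all features, 6.96% had every H10 array above every C8 array and 10.1% every H10 array below. None passed at an adjusted p under 0.05.

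Within a line the AP-1 genes were not equally steady. C8 replicate 1 was the highest C8 array for 8 of the 10 members, all but Fosb and Batf, where 59.6% of the 11189 brighter genes and 41.6% of all genes had their highest C8 value on that array. It exceeded the mean of the other C8 arrays by 0.90 for Fos, 0.67 for Jdp2, 0.34 for Jun, 0.33 for Junb and 0.30 for Fosl1. Without C8 replicate 1 the log2 fold change of Jdp2 changed sign, from -0.10 to 0.12 (adjusted p = 0.775). That of Jun was 0.45 (adjusted p = 0.293), that of Junb 0.16 (adjusted p = 0.627), that of Atf3 0.85 (adjusted p = 0.362) and that of Fosl1 -0.37 (adjusted p = 0.142). Those of Fosl2, Fosb, Jund and Batf were 0.21, -0.11, -0.11 and -0.11, so no AP-1 gene passed without this array. H10 replicate 1 was the highest H10 array for 5 members, Fos, Fosl1, Junb, Jdp2 and Batf, against 41.0% of all genes. It was the lowest for 4, Fosb, Jun, Jund and Atf3, of which Fosb, Jun and Atf3 were highest on replicate 2. The spread of Fos within C8, at 0.91 log2 units from lowest to highest, was about the size of its difference between the lines, and that of Fosl1 was 0.30.

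**Figure D3:**
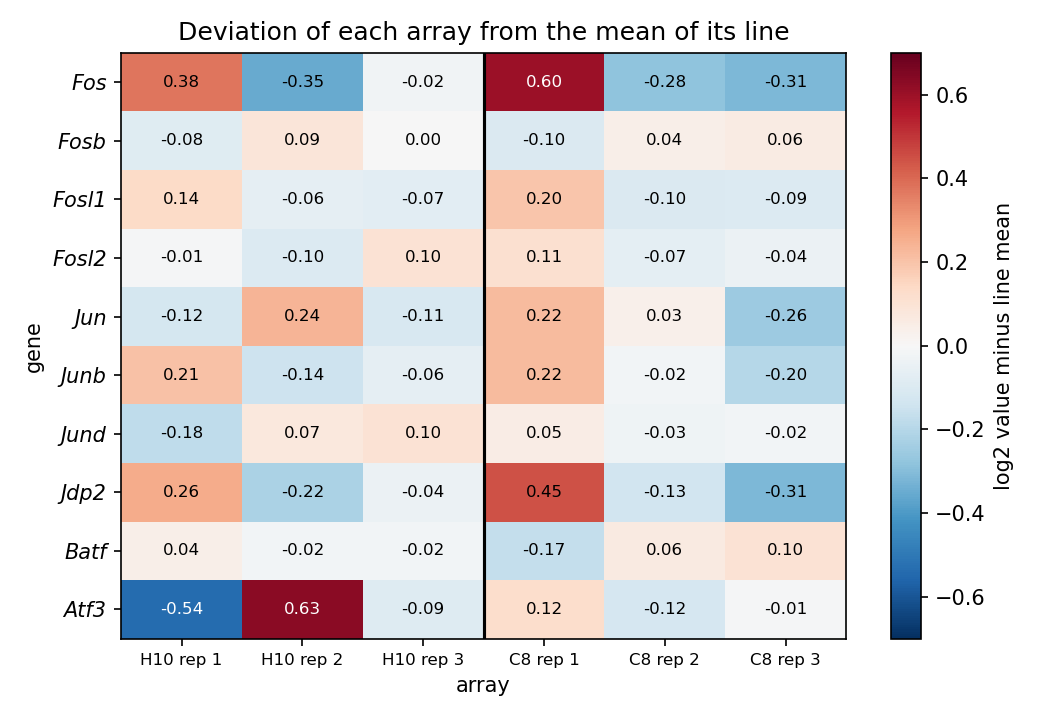
Log2 value of each AP-1 gene (y axis) on each array (x axis) minus the mean of its line, with red above and blue below that mean. C8 replicate 1 is above its line mean for 8 genes, most for Fos at 0.60 and Jdp2 at 0.45, and Atf3 spreads from -0.54 to 0.63 within H10.

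The genes whose pattern over the 6 arrays was most like that of Fos were Pdgfb and Myc, by the root mean square distance of log2 values centred on each gene's mean, among 11188 other genes brighter than the table median. Both were chosen by this distance, so their likeness to Fos between and within the lines follows from the choice. Pdgfb, a growth factor that osteoclast precursors release, lay at a distance of 0.067. The arrays read 11.87, 11.15 and 11.46 in H10 against 11.10, 10.17 and 10.33 in C8, with the replicate 1 array highest in each line. Its log2 fold change was 0.96 (adjusted p = 0.214), and 1.24 (adjusted p = 0.0732) without C8 replicate 1. Myc, an immediate-early transcription factor, lay at a distance of 0.126. It had log2 values of 12.46, 11.98 and 12.10 for H10 and 12.08, 11.21 and 10.94 for C8, and the log2 fold change was 0.77 (adjusted p = 0.371), and 1.11 (adjusted p = 0.0521) without C8 replicate 1.

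The rest of the bZIP class gave no call. Of 39 other bZIP factors measured, among them the ATF, CREB, MAF, NRF, BACH and C/EBP proteins, 0 passed in limma in either direction. At an unadjusted p under 0.05, 4 had higher and 4 had lower values in H10 cells, against 5.63% and 6.24% of all features. The median log2 fold change was -0.06. The range ran from -0.35 for Crem, a CREB relative, to 0.47 for Cebpe, a C/EBP factor of granulocytes and macrophages (adjusted p = 0.101). Cebpb, a C/EBP factor of macrophages, differed by a log2 fold change of -0.21 (adjusted p = 0.493).

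Upstream of AP-1 stand the kinases that lead to it and the factors that switch on Fos. Of 25 measured, 1 fell in H10 cells and 0 rose, where 0.757% of all features were called lower and 1.36% higher. The gene that fell was Map2k1, which encodes MEK1, the kinase that activates ERK. Per array the log2 value was 11.34, 11.50 and 11.46 in the H10 triplicate and 11.90, 11.82 and 11.82 in the C8 triplicate, with all H10 arrays below all C8 arrays. The log2 fold change was -0.41 (SE 0.07, adjusted p = 0.0376). This call was lost whichever of the 6 arrays was left out, with adjusted p from 0.0819 to 0.155, and also after median centring. Mapk8, which encodes the c-Jun kinase JNK1, stood at a log2 fold change of 0.04 (adjusted p = 0.939), and Mapk14, which encodes p38α, one of 0.02 (adjusted p = 0.970). The list had a median log2 fold change of -0.10, with 6 genes lower and 0 higher at an unadjusted p under 0.05, against 6.24% and 5.63% of all features.

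The phosphatases that switch those kinases off held larger differences. Of 17 MAP kinase phosphatases and Sprouty or Spred inhibitors, 2 rose in H10 cells and 0 fell, and the median log2 fold change was -0.04. Among all features 1.36% were called higher and 0.757% lower. At an unadjusted p under 0.05 in limma, 3 had higher and 3 had lower values in H10 cells, against 5.63% and 6.24% of all features. Dusp4, a nuclear phosphatase of ERK and JNK, had log2 values of 11.47, 11.61 and 11.46 in H10 against 9.97, 10.16 and 9.80 in C8. It rose by 1.54 on the log2 scale (SE 0.10, adjusted p = 0.00175) and passed in every setting tried. Dusp1, an immediate-early phosphatase of p38 and JNK, had log2 values of 12.03, 11.44 and 11.61 for H10 and 10.88, 10.62 and 10.62 for C8. All H10 arrays lay above all C8 arrays, and the rise was 0.99 on the log2 scale (SE 0.16, adjusted p = 0.0363), a call that was lost when H10 replicate 2 or 3 or any 1 C8 array was left out, with adjusted p from 0.0511 to 0.141. Dusp6, the cytoplasmic phosphatase of ERK, had log2 values of 7.87, 8.32 and 8.20 in the H10 triplicate and 8.60, 9.56 and 9.55 in the C8 triplicate. All H10 values were the lower ones, yet the log2 fold change of -1.11 did not pass (adjusted p = 0.137). Without C8 replicate 1 it was -1.43 and passed (adjusted p = 0.0175).

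The immediate-early genes outside AP-1, which the same signals switch on within minutes, did not share 1 direction. Of 21 genes, 1 rose, 1 fell and 19 did not pass, with a median log2 fold change of -0.01. Among all features 1.36% were called higher and 0.757% lower. At an unadjusted p under 0.05 in limma, 5 had higher and 2 had lower values in H10 cells, against 5.63% and 6.24% of all features. Rgs1, which shortens signals from G protein-coupled receptors, had log2 values of 10.38, 10.65 and 10.31 in H10 against 8.84, 8.65 and 8.56 in C8, a rise of 1.76 on that scale (SE 0.12, adjusted p = 0.00153) that passed in every setting tried. Btg2, which slows cell division, had log2 values of 8.83, 9.20 and 9.37 for H10 and 9.96, 10.06 and 10.14 for C8. It fell by 0.92 on the log2 scale (SE 0.14, adjusted p = 0.0293), a call lost when H10 replicate 2 or any 1 C8 array was left out, with adjusted p from 0.0717 to 0.122. Egr1, the immediate-early gene most like Fos in its control by serum response factor, gave a log2 fold change of 0.09 (adjusted p = 0.939), and 0.31 (adjusted p = 0.325) without C8 replicate 1.

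Factors that bind DNA beside AP-1, and its co-regulators, gave 0 calls among 16 measured in limma. At an unadjusted p under 0.05, 2 had lower values in H10 cells and 0 had higher ones, against 6.24% and 5.63% of all features. The median log2 fold change was -0.05. Nfatc1, the partner of c-Fos on osteoclast genes, had a mean log2 value of 12.29 ± 0.17 (SD, n = 3) in H10 and 12.15 ± 0.21 in C8 cells, a log2 fold change of 0.14 (adjusted p = 0.808). Irf8, which holds back OCG and which pairs with Batf, had log2 values of 8.59, 8.84 and 8.76 in the H10 triplicate and 9.41, 9.05 and 9.28 in the C8 triplicate. All its H10 values were the lower ones, giving a log2 fold change of -0.52 (adjusted p = 0.0943), and it passed among features above the table median (adjusted p = 0.0366).

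The genes listed here as downstream of c-Fos, most of them osteoclast genes, rose in part. Of 16, 8 rose in H10 cells, 0 fell and 8 did not pass, with a median log2 fold change of 0.41. Over all features 1.36% were called higher and 0.757% lower. The study named 5 of the 8 from these arrays, Ctsk, Prdm1, Ocstamp, Oscar and Dcstamp, so the count is not independent evidence of the direction. Ctsk, the collagen-degrading protease cathepsin K, had log2 values of 12.56, 12.60 and 12.91 in H10 against 9.10, 9 and 9.27 in C8, a rise of 3.57 on that scale (SE 0.12, adjusted p = 0.000138). Prdm1, the repressor Blimp1, rose by 2.63 (adjusted p = 0.00119), and Ocstamp, a fusion protein of the cell membrane, by 2.69 (adjusted p = 0.0292), both on the log2 scale. The Ocstamp call was lost when any 1 H10 array or C8 replicate 2 or 3 was left out. Acp5 and Clcn7, named after their values were seen, encode the enzyme TRACP and a chloride transporter of the resorbing membrane, and rose on the log2 scale by 0.47 (adjusted p = 0.0330) and 0.72 (adjusted p = 0.0339). The Acp5 call was lost under the same omissions, without the replicate 1 arrays of both lines and after median centring, and the Clcn7 call when H10 replicate 2 or 3 or any 1 C8 array was left out. Ifnb1, through which c-Fos limits its own level in precursors, gave a log2 fold change of 0.09 (adjusted p = 0.885), and its mean of 6.32 in H10 lay below the lower quartile of 6.4.

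Target genes of AP-1 in cells at large moved in both directions or did not pass. Of 20 measured, 2 rose, 1 fell and 17 did not pass, and the median log2 fold change was 0.00. Among all features 1.36% were called higher and 0.757% lower. At an unadjusted p under 0.05 in limma, 5 had higher and 1 had lower values in H10 cells, against 5.63% and 6.24% of all features. Il6, Il1b, Mmp12, Mmp13, Mmp14 and Timp1 had means under the table median of 7.7 in both lines. The limit given for Fosb holds for them too. Plau, the protease urokinase and one of the best known AP-1 targets, had log2 values of 11.59, 11.46 and 11.59 for H10 and 10.32, 9.97 and 9.84 for C8, a 2.83-fold rise (SE 0.13 on the log2 scale, adjusted p = 0.00369). Ccl2, a chemokine that draws monocytes, had log2 values of 10.14, 9.83 and 9.58 in the H10 triplicate and 8.41, 8.18 and 8.31 in the C8 triplicate, a rise of 1.55 on that scale (SE 0.15, adjusted p = 0.00528). Vegfa, the vascular growth factor, had log2 values of 10.02, 10.27 and 10.37 in H10 against 11.54, 10.96 and 11.24 in C8. It fell by 1.03 on the log2 scale (SE 0.16, adjusted p = 0.0328), a call lost when any 1 H10 array or C8 replicate 1 or 3 was left out. Ccnd1, the cell cycle regulator cyclin D1, stood at a log2 fold change of -0.21 (adjusted p = 0.466).

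**Figure D4:**
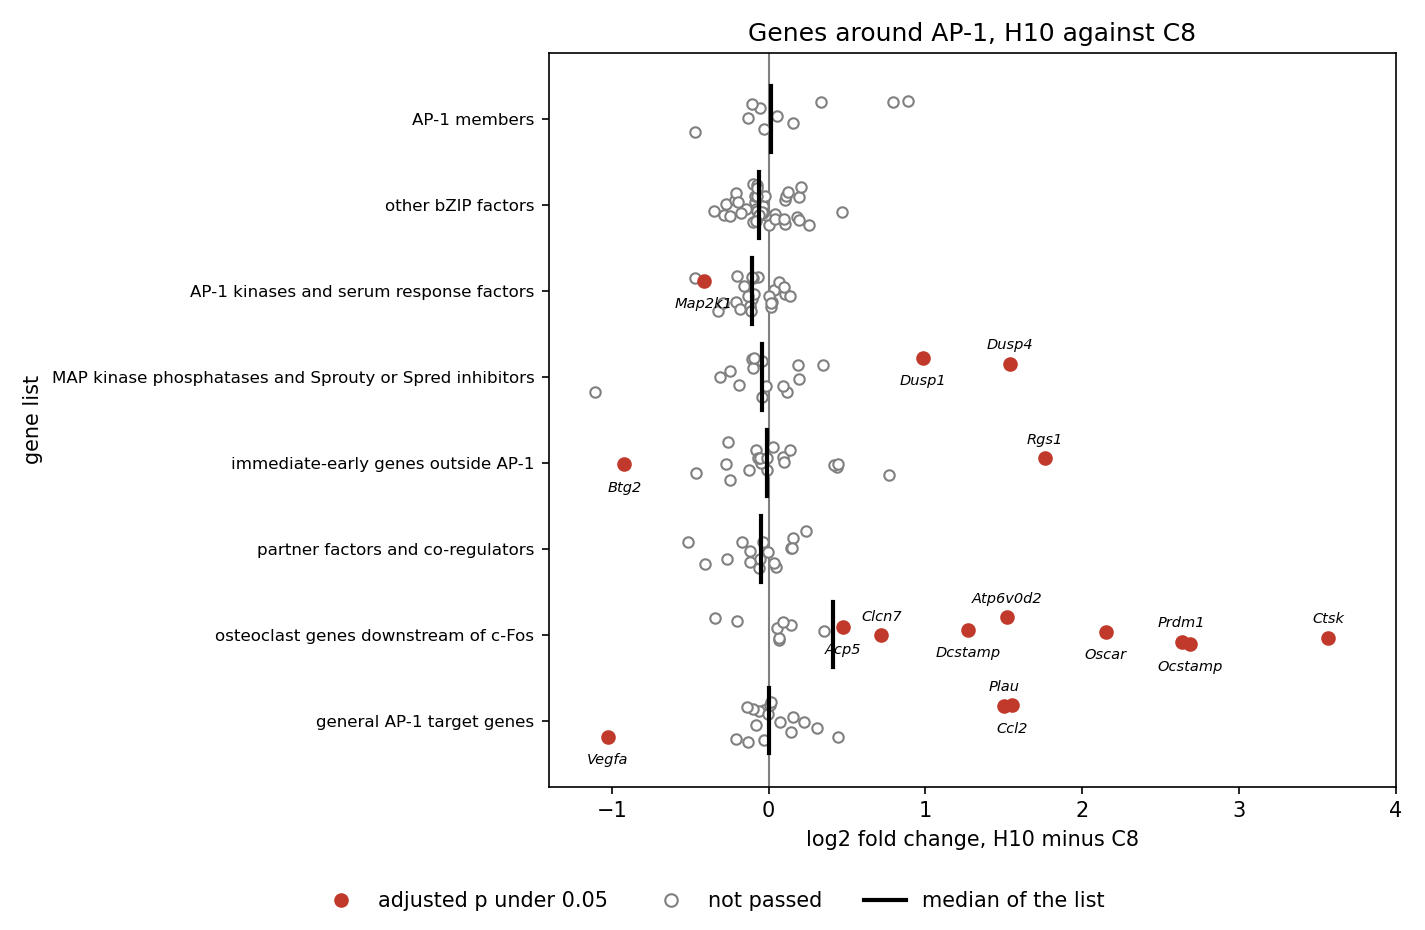
Log2 fold change, H10 minus C8 (x axis), of the AP-1 genes and 7 lists of genes around them (y axis, 1 point per gene, spread vertically for legibility), with the list median as a bar and filled points for an adjusted p under 0.05 from limma. The AP-1 row holds 0 filled points, and the row of osteoclast genes holds 8.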

How the data were processed

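Total RNA of each line was hybridised to 3 Affymetrix Mouse Gene ST arrays. The authors deposited RMA log2 values, background-corrected, normalized between arrays and summarised per feature. Affymetrix Expression Console is named in the submitters' processing notes (version not given in the sources used here). Deposited values were used without filter or further normalization. Of 35545 features, 21781 had 1 gene symbol, 1621 several and 12143 none, and features with 1 symbol stood for genes. Testing used limma 3.58.1 under R 4.3.3 (lmFit and eBayes, two-sided), with 4 residual and 2.57 prior degrees of freedom and the Benjamini-Hochberg adjustment over all features. The fit was tested on simulated data.

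The AP-1 members and the lists were chosen with earlier results of these data known. The text names all members, up to 3 genes per direction and list that passed, 1 or 2 chief genes of each list that did not, and the 2 genes most like Fos. Acp5, Clcn7, Oscar, Dcstamp, Crem, Cebpe and the macrophage markers were named outside this rule, after their values were seen. Some listed genes were not analysed here, and counts are over the genes measured.

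Alternatives were each array left out, a block for the replicate number, median centring, quantile normalization, only features brighter than the table median on 3 or more arrays, 1 mean value per gene, adjustment over 1 feature per gene, and a robust prior with intensity trend. The fit without both replicate 1 arrays was added after seeing the data. The number of arrays limits the precision. Plots were made in Python 3.11.15 (matplotlib 3.10.9).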

Additional observations from a re-analysis of the deposited data

How the results depend on the processing

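The AP-1 count stayed at 0 higher and 0 lower in every setting that counted it but 1. Among features above the table median, which tests fewer features and leaves out Fosb, 1 member was lower, Fosl1. Under that filter the features lower in H10 cells numbered 521 against 269, and 1 other bZIP factor was higher, 3 AP-1 kinases or serum response factors were lower and 2 partner factors were lower. With the replicate block, 290 features were higher against 484 and 98 were lower, and the kinase list and the general AP-1 targets each had 0 lower genes. The block left 6 of the 8 osteoclast genes called, without Acp5 (adjusted p = 0.0849) and Clcn7 (adjusted p = 0.0860), and Pdgfb passed (adjusted p = 0.0324). Over all features, the deviations of same-numbered arrays had r of 0.166, -0.00430 and -0.121, against -0.183 to 0.227 for the other pairs. The labels give only the replicate number, and whether same-numbered arrays shared a batch was not tested. Median centring also left 0 lower kinases. With 1 array left out, 183 to 448 features were higher and 53 to 166 lower, a fit with fewer samples. Under the same omissions the lower kinases numbered 0 to 0, the phosphatases 1 to 2 higher and 0 to 1 lower, the immediate-early genes 1 to 2 higher and 0 to 1 lower, the osteoclast genes 4 to 7 higher and the general AP-1 targets 0 to 1 lower. Without the replicate 1 arrays of both lines, 115 features were lower, 0 kinases were lower, 1 phosphatase was lower and 0 general AP-1 targets were lower. Where no construction of the setting is named, the cause was not tested. Each alternative was run for 42 named genes. Of these, 6 that never passed changed sign, each only with 1 array left out, where the log2 fold change ran from -0.26 to 0.12 for Jdp2, -0.11 to 0.025 for Batf, -0.05 to 0.16 for Junb, -0.0617 to 0.313 for Egr1, -0.025 to 0.0717 for Mapk8 and -0.025 to 0.0417 for Mapk14. Values near the table median, such as those of Fosb and Batf, are limited by a background that was not measured, as may be the C8 values of Atf3.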
